A study of Mus musculus with 8 samples.

Results

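DNA methylation and histone modifier genes encode the enzymes and readers that write, erase and interpret chemical marks on DNA and histones. The 38 genes described here were taken by name. They comprise 8 genes of DNA methylation and its removal, 10 histone deacetylases and sirtuins, 10 histone methyltransferases and Polycomb subunits, 4 histone demethylases, 4 acetyltransferases and 2 subunits of the BAF nucleosome remodeller. All 38 were found among the 21887 protein-coding genes of the annotation. Accessible chromatin was measured by ATAC-seq, in which a transposase cuts open DNA, in hippocampal microglia, the resident macrophages of the brain. Of the 8 libraries, 4 came from FGR mice, whose growth was restricted in the womb, and 4 from Ctrl mice. All animals of both groups were labelled Tmem119-tdTomato+/-, a reporter driven from a microglial gene, and 3 weeks old. The labels state neither how growth was restricted nor the animals' sex or the number behind a library, so p-values measure only the spread between these libraries.

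Methyl groups on cytosine are laid down by DNA methyltransferases, copied after replication with the help of UHRF1, oxidised by TET enzymes and read by MBD proteins. Acetyltransferases such as p300 and CBP mark active promoters and enhancers, and deacetylases remove the acetyl groups. Polycomb repressive complex 2, with EZH1 or EZH2, EED and SUZ12, methylates histone H3 at silent genes, while the KMT2 enzymes methylate it at active promoters and enhancers. In microglia these systems are known to shape the response to inflammatory signals and the identity that cells take on after birth. An open promoter makes a gene reachable for transcription, but a peak is not a measure of its RNA.

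The peak lists held 27209, 23327, 29501 and 26246 peaks in FGR libraries 1 to 4, and 16111, 10862, 22705 and 24195 in Ctrl libraries 1 to 4. FGR libraries 1 and 3 placed 9.02% of the summits of overlapping peaks on the identical base and FGR libraries 2 and 4 placed 7.53% there, against 1.72% to 2.12% for other pairs among the FGR libraries and Ctrl 3 and 4. Replicates 1 and 3, and 2 and 4, were therefore counted as pairs wherever a mean ± SD is given, although the Ctrl pairs did not share identical summits in this way. Ctrl libraries 1 and 2 stood apart, with median peak widths of 566 and 522 bp against 353 to 386 bp elsewhere and with summits displaced from the other 6 libraries by a median of 137 to 141 bp. Results are given with and without these libraries where they touch them. Of 15 microglial marker genes, 6 had a peak within 1 kb of a gene end in all 8 libraries and 2 in none, with a mean of 81.7% per FGR library and 66.7% per Ctrl library. Of the markers of neurons, other glia, vessels, border macrophages, monocytes and lymphocytes, 1 astrocyte gene did in all 8, and defining genes such as Rbfox3, Gfap, Mog, Pecam1, Lyve1 and Cd3e had none in any library. The others with a peak were the endothelial gene Flt1, in 4 FGR libraries and 1 Ctrl library, Prox1 and Mbp in 2 and 2, Tubb3, Neurod6, Aldh1l1 and Mrc1 in 1 FGR library each, Cd79a in 2 Ctrl libraries, and Slc1a2, Cdh5 and Ms4a1 in 1 Ctrl library each. The part of other cell types in the results was not tested.

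Promoter sequences are shown for 5 members because they span the range of accessibility: the 2 starts with the highest median percentile, a gene with a closed and an open start, the gene with no start peak at all, and a CpG-bearing start that was almost never called. Each runs from 250 bases before to 50 bases after a RefSeq transcription start, 5′ to 3′ on the gene's strand, in build GRCm38.p6, with CG dinucleotides in capitals.
Kdm4a start 1 (chr4:118179994-118180293, minus strand): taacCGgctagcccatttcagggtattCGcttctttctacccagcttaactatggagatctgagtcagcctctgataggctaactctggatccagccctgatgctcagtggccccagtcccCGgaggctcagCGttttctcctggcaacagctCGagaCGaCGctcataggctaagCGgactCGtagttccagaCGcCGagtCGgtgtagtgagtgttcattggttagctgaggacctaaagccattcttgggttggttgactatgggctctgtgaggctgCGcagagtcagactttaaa
Hdac4 start 1 (chr1:92180292-92180591, minus strand): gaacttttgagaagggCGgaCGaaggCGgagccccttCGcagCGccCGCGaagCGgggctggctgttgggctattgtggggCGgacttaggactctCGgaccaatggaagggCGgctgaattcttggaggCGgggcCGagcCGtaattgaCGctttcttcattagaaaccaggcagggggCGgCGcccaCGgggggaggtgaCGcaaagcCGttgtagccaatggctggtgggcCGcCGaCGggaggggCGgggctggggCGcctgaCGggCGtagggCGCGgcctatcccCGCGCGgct
Dnmt1 start 1 (chr9:20959839-20960138, minus strand): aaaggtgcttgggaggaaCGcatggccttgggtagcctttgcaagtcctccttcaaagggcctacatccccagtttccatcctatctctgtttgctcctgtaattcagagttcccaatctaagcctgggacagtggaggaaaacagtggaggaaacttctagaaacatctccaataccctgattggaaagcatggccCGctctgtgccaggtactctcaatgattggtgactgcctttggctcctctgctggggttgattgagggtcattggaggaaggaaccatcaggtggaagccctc
Dnmt1 start 2 (chr9:20952930-20953229, minus strand): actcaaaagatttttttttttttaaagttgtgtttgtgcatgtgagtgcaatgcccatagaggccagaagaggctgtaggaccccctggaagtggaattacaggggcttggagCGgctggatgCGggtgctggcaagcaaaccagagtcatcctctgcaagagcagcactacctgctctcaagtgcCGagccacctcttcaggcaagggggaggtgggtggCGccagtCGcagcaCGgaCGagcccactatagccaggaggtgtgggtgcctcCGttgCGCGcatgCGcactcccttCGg
Hdac9 start 1 (chr12:34917046-34917345, minus strand): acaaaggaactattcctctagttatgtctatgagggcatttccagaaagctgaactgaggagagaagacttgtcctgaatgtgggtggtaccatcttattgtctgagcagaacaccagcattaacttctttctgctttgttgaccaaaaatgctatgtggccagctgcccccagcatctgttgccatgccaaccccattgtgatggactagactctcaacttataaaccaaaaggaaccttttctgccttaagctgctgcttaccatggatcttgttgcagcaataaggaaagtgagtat
Hdac9 start 2 (chr12:34528840-34529139, minus strand): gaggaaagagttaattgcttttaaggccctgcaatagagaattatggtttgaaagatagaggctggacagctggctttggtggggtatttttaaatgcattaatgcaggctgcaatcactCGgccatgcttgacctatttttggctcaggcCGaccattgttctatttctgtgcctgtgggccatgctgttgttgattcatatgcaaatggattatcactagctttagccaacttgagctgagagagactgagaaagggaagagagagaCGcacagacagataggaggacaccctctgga
Kat2a start 1 (chr11:100712418-100712717, minus strand): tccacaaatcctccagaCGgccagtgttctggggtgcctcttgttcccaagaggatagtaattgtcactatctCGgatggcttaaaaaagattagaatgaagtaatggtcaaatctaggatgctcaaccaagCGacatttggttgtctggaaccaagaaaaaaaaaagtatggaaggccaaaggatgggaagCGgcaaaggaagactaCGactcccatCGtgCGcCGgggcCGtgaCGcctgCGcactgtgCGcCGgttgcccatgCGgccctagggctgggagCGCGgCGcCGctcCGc

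The start windows of Kdm4a and Hdac4 hold 13 and 32 CG dinucleotides, and both had a peak within 1 kb in 8 of 8 libraries. Start 1 of Dnmt1 holds 2 and was called in 0 libraries, whereas start 2 of the same gene, 6.9 kb downstream, holds 12 and was called in 8. The Hdac9 windows hold 0 and 3 CG dinucleotides and were called in 0 libraries. Kat2a, with 19, was called in 1.

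Most members had open ends in FGR and Ctrl microglia alike, and no member passed a test of a difference between the groups. A peak that overlaps the window of 1 kb upstream or downstream of a gene's annotated ends is termed a gene-end peak. It was called in all 8 libraries for 22 of 38 members, or 57.9%, against 31.9 percent of all protein-coding genes. Without Ctrl 1 and 2 the count was 27 of 38 members. Leaving libraries out can only raise this count, and the matching share of all genes is not given. In 6 members, or 15.8%, a gene-end peak was called in 0 of the 8 libraries, against 42.2 percent of all genes. A site missing from a list can be open in fewer cells or less open per cell, which bulk libraries cannot tell apart. The number of members with a gene-end peak was 28, 28, 29 and 28 in FGR libraries 1 to 4, and 29, 23, 28 and 31 in Ctrl libraries 1 to 4. The groups overlapped, and Ctrl 2, the shortest list, was lowest. The mean share of members was 74.3% in FGR and 73.0% in Ctrl, or 77.6% in Ctrl 3 and 4 alone. Over all genes the mean was 46.7% in FGR and 42.7% in Ctrl, or 47.1% in Ctrl 3 and 4. No member had a gene-end peak in at least 3 more FGR than Ctrl libraries or the reverse, where 1.21 percent and 0.174 percent of all genes did. Fisher's exact test, two-sided over all genes, can go no lower than p = 0.0286 with 4 against 4 libraries, and its smallest Benjamini-Hochberg adjusted p was 1. At an unadjusted p under 0.05 it took 42 genes and 0 members. The test took the 8 libraries as independent.

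RefSeq start positions were available for 34 members, with 50 distinct starts between them. A start peak, within 1 kb of any such start, was called in all 8 libraries for 25 of 34 members, or 73.5%, against 34.6 percent of the 17492 genes with a start entry. Hdac9 alone had none, or 1 of 34, against 40.9 percent of genes. Members with a start peak numbered 30, 29, 31 and 29 in FGR libraries 1 to 4, and 30, 26, 30 and 33 in Ctrl libraries 1 to 4. Here too 0 members were separated by 3 or more libraries in either direction, against 1.28 percent of genes with more FGR libraries and 0.126 percent with more Ctrl libraries. The summit of the strongest start peak lay a median of 71, 82, 60 and 83 bp upstream of the nearest start in FGR libraries 1 to 4, and 74.5, 79 and 91 bp upstream in Ctrl libraries 2 to 4, with Ctrl 1 closer to the start. Median absolute distances were 110, 127, 93 and 140 bp in FGR, and 232, 217, 108 and 126 bp in Ctrl. Ctrl 1 and 2, the libraries with displaced summits, thus had the widest scatter around the members' starts.

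**Figure D1:**
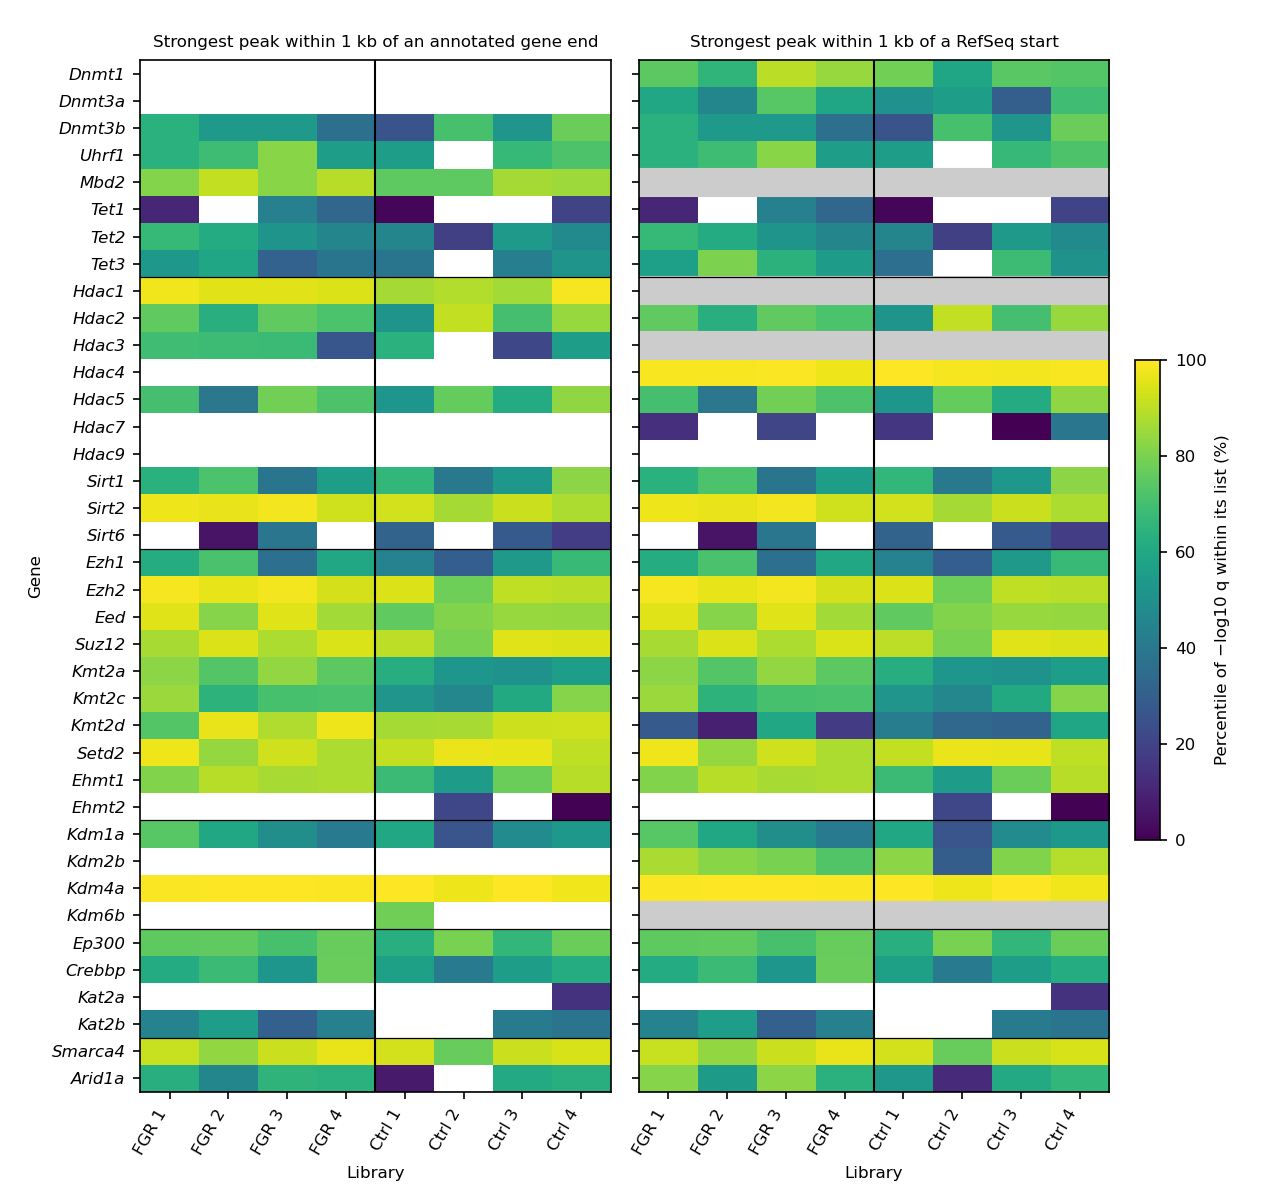
Within-list percentile of −log10 q of the strongest peak near a gene end (left panel) and near a RefSeq start (right panel) for the 38 members, ordered by role with lines between classes, in 4 FGR libraries and 4 Ctrl libraries. White marks no peak and grey a gene with no start entry. Kdm4a is above the 97th percentile in all 8 libraries in both panels, while Dnmt1, Dnmt3a, Hdac4 and Kdm2b are white at gene ends and coloured at starts.

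Peak strength was described by the percentile of the authors' −log10 q value within its own list, where 100 would be the strongest peak; no test between lists was made. Among the DNA methyltransferases, Dnmt1, which copies methylation onto newly made DNA, had no gene-end peak, but its starts 2 and 3, 6.9 and 7.3 kb downstream of start 1, were called in 8 of 8 libraries. The percentiles there were 74.8, 65.3, 89.8 and 84.7 in FGR libraries 1 to 4, and 78.6, 58.7, 74.3 and 73.3 in Ctrl libraries 1 to 4. The ranges overlapped, with Ctrl 2 lowest. Dnmt3a, a de novo methyltransferase, likewise had no gene-end peak but a peak at its first start in all 8 libraries. The percentiles at that start reached 74.0 in FGR libraries and 56.6 in Ctrl libraries, and the groups overlapped. FGR 1 and 3 lay above all Ctrl libraries, while FGR 2 and 4 lay below Ctrl 1, 2 and 4. Ctrl 3 was lowest, at 2.0. A further Dnmt3a start, 84.8 kb downstream, was called in 4 FGR libraries at percentiles of 23.9, 46.0, 48.2 and 58.8, and in Ctrl 3 and 4 at 30.3 and 69.3. Dnmt3b, the other de novo enzyme, was called in 8 libraries, with percentiles of 63.9, 53.8, 53.9 and 37.0 in FGR and 26.1, 70.9, 52.3 and 77.5 in Ctrl. The highest and the lowest of these both came from Ctrl libraries.

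Uhrf1, which recruits DNMT1 to newly replicated DNA, had a gene-end peak in 4 FGR and 3 Ctrl libraries, with Ctrl 2 the exception. Mbd2, which encodes a reader of methylated DNA, had one in 8 libraries at a median percentile of 83.9. The 3 TET genes, whose enzymes oxidise methylcytosine, differed from each other. Tet1 was called in 3 FGR and 2 Ctrl libraries at a median percentile of 20.6, Tet2 in 8 libraries at 49.8, and Tet3 in 4 FGR and 3 Ctrl libraries at 43.1. Ctrl 2 was again the library in which Tet3 was missing.

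Of the class I deacetylases, Hdac1 and Hdac2, partners in several co-repressor complexes, were called in 8 libraries at median gene-end percentiles of 95.2 and 73.6. An end window of Hdac1 meets an end window of Marcksl1. The Hdac1 gene-end peak lay at chr4:129542349-129543080. By the opposite end of the gene, regions near an end or start of another gene lay at 129513207 to 129514737. Hdac3, the catalytic subunit of the NCoR co-repressor complex, was called in 4 FGR and 3 Ctrl libraries. Hdac4, a class IIa deacetylase that shuttles between nucleus and cytoplasm, had no gene-end peak, yet its RefSeq start carried some of the strongest peaks of every list. The percentiles were 99.1, 99.0, 99.5 and 97.6 in FGR libraries 1 to 4, and 99.7, 98.6, 98.1 and 98.9 in Ctrl libraries 1 to 4. All 8 values lay within a narrow band that was shared by both groups. Hdac5, of the same class, was called in 8 libraries at a median of 71.5. Hdac7 was weak: its starts 2 and 3 were called in FGR 1 and 3 and in Ctrl 1, 3 and 4, at percentiles of 13.8 and 21.0 in FGR and 15.7, 0.2 and 39.2 in Ctrl. Hdac9 was called at neither of its starts, which lie 388.2 kb apart.

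The sirtuins are NAD-dependent deacylases. Sirt1 and Sirt2 were called in 8 libraries at median percentiles of 59.6 and 92.9. End windows of Sirt2 meet those of Nfkbib and Rinl. Sirt6, which acts on chromatin and in DNA repair, was called in 2 FGR and 3 Ctrl libraries at a median of 28.5.

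Polycomb members were open throughout. Ezh2, the methyltransferase subunit, had percentiles of 98.7, 96.1, 98.3 and 93.4 in FGR libraries 1 to 4, and 94.9, 77.8, 90.6 and 89.6 in Ctrl libraries 1 to 4. The 4 FGR values exceeded those of 3 Ctrl libraries, and Ctrl 1 lay among them. Eed and Suz12, the other core subunits, had medians of 84.5 and 92.4, and Ezh1, the second methyltransferase of the complex, had 57.0. Kmt2a had 82.8, 73.1, 83.6 and 74.7 in FGR, and 62.2, 52.5, 51.0 and 55.8 in Ctrl. These values did not overlap between the groups, but ranks in lists of different length do not measure a change. How many other members, or how many of all genes, separate in this way was not counted, so the separation cannot be judged. Kmt2c had a median of 67.9. Kmt2d, which with KMT2C methylates enhancers, had 90.4 at its 3′ end and 32.8 at its RefSeq start. An end window of Kmt2d meets that of Prkag1.

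Setd2, the enzyme that methylates H3 lysine 36 along transcribed genes, had a median of 91.8. Ehmt1 and Ehmt2 encode GLP and G9a, partners that methylate H3 lysine 9. Ehmt1 was called in 8 libraries at a median of 84.1, whereas Ehmt2 was called in 0 FGR libraries and in Ctrl 2 and 4, at percentiles of 21.3 and 0.7.

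Kdm4a, a demethylase of H3 lysines 9 and 36, had the highest median percentile of all members. Its percentiles were 99.6, 99.7, 99.8 and 99.4 in FGR libraries 1 to 4, and 99.9, 97.3, 99.7 and 97.8 in Ctrl libraries 1 to 4. Hdac4 ranked above it at the start in Ctrl 2 and 4, and Hdac1 at the gene end in Ctrl 4. The Kdm4a peak lay at the 5′ end, at chr4:118179313-118180446. An end window of Kdm4a meets that of St3gal3. By the 3′ end of Kdm4a, a region near an end or start of another gene lay at 118134452 to 118135371. Kdm1a, which encodes the demethylase LSD1, was called in 8 libraries at a median of 51.5. Kdm2b, which binds unmethylated CpG islands, had no gene-end peak but was called at its downstream starts, 88.7 kb from start 1, in 8 libraries at a median of 81.6. Kdm6b, an H3 lysine 27 demethylase induced by inflammatory signals, had a gene-end peak in Ctrl 1 alone. That peak belonged to a region at the edge of the 1 kb window, chr11:69418650-69419410, which was called in 8 libraries. In the other libraries its peaks stopped short of the window.

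The acetyltransferase genes Ep300 and Crebbp were called in 8 libraries at medians of 75.4 and 59.1. Their relatives Kat2a and Kat2b, which encode GCN5 and PCAF, were not: Kat2a was called in Ctrl 4 alone, and Kat2b in 4 FGR libraries and Ctrl 3 and 4. Of the BAF subunits, Smarca4, the ATPase BRG1, had a median of 92.0 in 8 libraries, and Arid1a was called in 4 FGR and 3 Ctrl libraries. End windows that meet an end window of another gene include those of Hdac3, Hdac5, Sirt1, Sirt6, Ezh1, Kmt2a, Ehmt2, Kdm6b and Kat2a. Windows were said to meet where the 1 kb windows touch or overlap at either end of the member. The member's peak need not lie at that end.

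**Figure D2:**
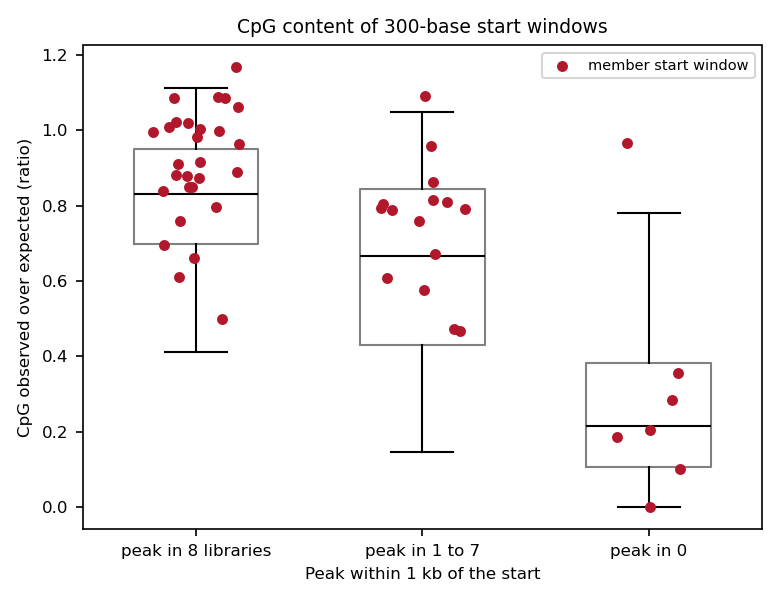
CpG observed over expected ratio in the 300 bases around each RefSeq start, by whether a peak lay within 1 kb in 8, 1 to 7 or 0 libraries. Boxes give the quartiles and whiskers the 5th to 95th percentiles of all genes, and red points are the 50 member windows. The members' median is 0.913 in 8 libraries, 0.792 in 1 to 7 and 0.205 in 0.

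The starts of the members were rich in CpG. Over the 50 start windows the median ratio of observed to expected CpG was 0.844 and the median GC content 66.8%, against 0.567 and 56.3% over all 21263 windows. A ratio of at least 0.6 with at least 50% GC was met by 39 member windows, or 78.0%, against 45.1% of all windows. Among CpG-rich windows, 27 of 39 of the members, or 69.2%, were called in 8 libraries, against 60.9% of all genes. Among the others it was 1 of 11, or 9.09%, against 10.3%. The 1 CpG-rich member window called in no library was start 1 of Kdm2b.

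Motifs were searched as exact letters on both strands, and a match only describes the sequence. GGGCGG, bound by SP and KLF factors, was found in 33 of the 50 member windows, or 66.0%, against 46.2% of all windows. The NRF1 motif was in 8, or 16.0%, against 6.38%, including start 2 of Dnmt1 and the starts of Ezh1 and Ezh2. CCAAT, of NF-Y, was in 16, or 32.0%, against 38.2%. CCGGAAG, of ETS factors, was in 1, or 2.0%, against 11.6%. GAGGAAGT, a PU.1 motif, was in 1, the first start of Kat2b, against 3.13%. TGANTCA, of AP-1, was in 4 windows, or 8.0%, against 6.99%, and TTTCCCGC, of E2F, in 2, or 4.0%, against 1.41%. TGACGTCA, the CRE, was in 0, against 2.23%. The ETS and PU.1 strings share the letters GGAAG, and each string was counted by itself.

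Beyond the starts, the loci of the members were compared. A locus takes in the whole gene and 20 kb beyond both ends. The union of member loci held 166, 140, 166 and 164 peaks in FGR libraries 1 to 4, and 112, 78, 135 and 154 in Ctrl libraries 1 to 4. Divided by list length, these were between 56.3 and 62.5 per 10000 peaks in FGR, and 69.5, 71.8, 59.5 and 63.7 in Ctrl. The mean was 6.16 per 10000 lower in FGR, and Ctrl 1 and 2 were the highest of the 8, while Ctrl 3 and 4 overlapped with FGR. Without Ctrl 1 and 2 the mean was 1.61 per 10000 lower in FGR.

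Hdac9, Tet2 and Ep300 had the highest locus differences of the 30 members with enough peaks to test, and no member passed. Differences were fitted with limma to the 8037 loci that averaged 2 or more peaks per library, on a log2 scale of (peaks + 0.5) per 10000 of the list, with Benjamini-Hochberg adjustment. The fit took the libraries as independent, unlike the SDs, which were taken over pairs. At an adjusted p under 0.05 the fit called 0 members, against 0.0124 percent of all loci higher in FGR, which is 1 locus, and 0.0 percent lower. At an unadjusted p under 0.05 it took 1 member higher and 3 lower, against 2.6 percent and 15.6 percent of all loci. The median log2 difference was −0.28 over the members and −0.28 over all loci. FGR lists were longer, and without the division by list length the medians were 0.305 and 0.306. With the division, but without Ctrl 1 and 2, they were −0.08 and −0.12. Of the 30 members, 4 were above 0 and 26 below, against 1809 and 6228 of all loci; undivided counts put 28 members and 6817 loci above 0.

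Hdac9, a class IIa deacetylase gene, spans 869.5 kb of chromosome 12 (34047580 to 34917095), with locus counts of 11, 5, 10 and 10 peaks in FGR libraries 1 to 4, and of 3, 0, 4 and 5 in Ctrl libraries 1 to 4. FGR 2 equalled the highest Ctrl library, and the other FGR libraries lay above all of Ctrl. Per 10000 peaks the means were 3.35 ± 0.523 in FGR and 1.42 ± 0.551 in Ctrl (SD, n = 2 pairs). The limma log2 difference was 1.24 ± 0.32 (SE), with an adjusted p of 0.119. With pairs averaged before the limma fit it was 1.24 ± 0.31 (SE), with an adjusted p of 0.254. It was higher in FGR in all 20 other settings in which the locus was tested, from 0.69 to 1.83. Adjusted p ran from 0.000269 to 0.502. With lists cut to equal length the locus averaged fewer than 2 peaks per library and was not tested. Without Ctrl 2, whose list held no Hdac9 peak, the difference was 0.69, and without Ctrl 1 and 2 together 0.70, with adjusted p of 0.211 and 0.502. Ctrl 2 also had the shortest list, and the part of list length in the result was not tested. Of all tested loci, 12, or 0.149%, had a difference at least as high, with Hdac9 itself counted. Among the 66 loci whose gene spans at least 500 kb it was 2, or 3.03%, again with Hdac9 counted. The median of these 66 loci was 0.14, against −0.33 for genes under 50 kb. This split by span was made after the Hdac9 value was seen.

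**Figure D3:**
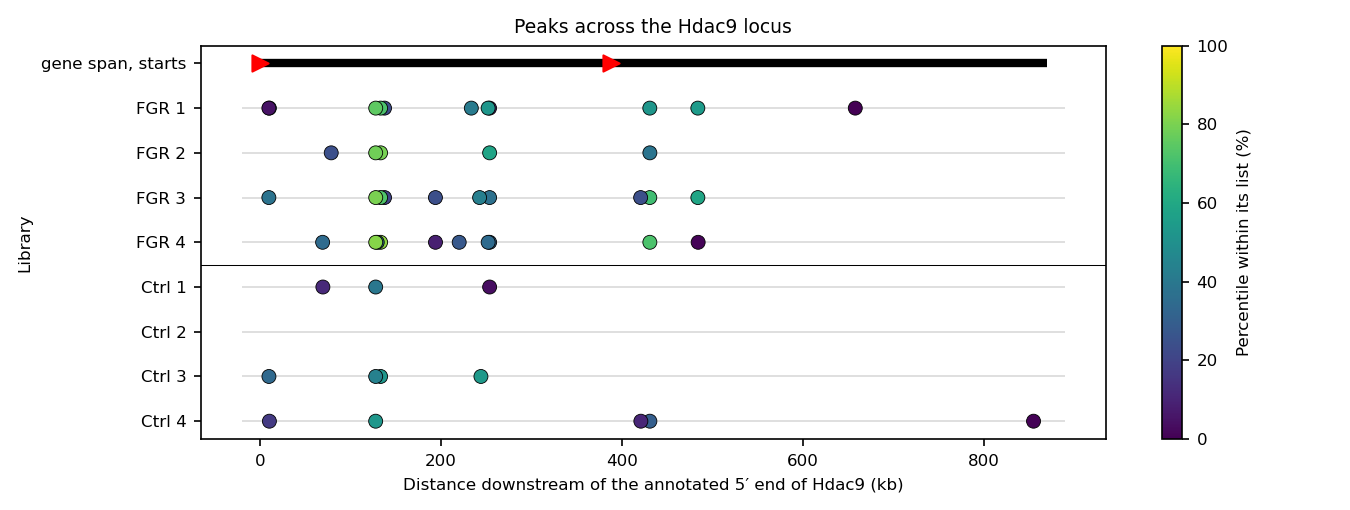
Peaks along the Hdac9 locus, by distance from the annotated 5′ end in kb, in 4 FGR libraries above 4 Ctrl libraries; colour gives the within-list percentile. The bar is the gene span and triangles its RefSeq starts. No peak sits at either start, and Ctrl 2 has none at all.

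The peaks of the Hdac9 locus fell into 22 regions, where a region is a merged stretch of peaks from any library sharing at least 1 bp. Of these, 0 were called in all 8 libraries and 11 in a single library, 8 of them FGR and 3 Ctrl. Altogether 12 were found in FGR alone, 3 in Ctrl alone and 7 in both. The most frequent, chr12:34789029-34789509 inside the gene, was called in 4 FGR and 3 Ctrl libraries. Regions at 34486012 to 34486426, 34663140 to 34663518 and 34783651 to 34783997 were each called in 4 FGR libraries and 1 Ctrl library, and that library was Ctrl 4, Ctrl 1 and Ctrl 3 in turn. The last of these had percentiles of 71.5, 79.5, 72.4 and 82.9 in FGR libraries 1 to 4, and 52.6 in Ctrl 3.

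Tet2 (chromosome 3, 133463677 to 133545136) had 3, 2, 3 and 5 locus peaks in FGR libraries 1 to 4, and 1 in each Ctrl library. The counts did not overlap, but after division by list length FGR 2, at 0.857 per 10000, lay below Ctrl 2, at 0.921. Per 10000 peaks the means were 1.22 ± 0.227 in FGR and 0.599 ± 0.096 in Ctrl (SD, n = 2 pairs), and the limma log2 difference was 0.68 ± 0.36 (SE), adjusted p = 0.279. The Tet2 start region held 2 peaks in each FGR library and 1 in each Ctrl library, and the single peak of Ctrl 1, 3 and 4 overlapped both of the FGR positions. Both peaks of FGR 2 lay there. The other 5 regions of the locus were each called in 1 FGR library.

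Ep300 (chromosome 15, 81586209 to 81652077) had 4, 5, 5 and 5 locus peaks in FGR libraries 1 to 4, and 2, 2, 3 and 3 in Ctrl libraries 1 to 4. These counts did not overlap either, and the values divided by list length did, at 1.47, 2.14, 1.70 and 1.91 per 10000 in FGR and 1.24, 1.84, 1.32 and 1.24 in Ctrl. The log2 difference was 0.23 ± 0.24 (SE), adjusted p = 0.556. Counts higher in every FGR than in every Ctrl library were found for these 2 of 38 members, against 2.83 percent of 17193 loci, and counts lower for 0 members, against 0.0233 percent.

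Tet3 had 7, 8, 8 and 8 locus peaks in FGR libraries 1 to 4, and 5, 2, 6 and 8 in Ctrl libraries 1 to 4, and Hdac7 had 4, 2, 4 and 2 in FGR and 1, 1, 2 and 4 in Ctrl. Both sets overlapped, and the log2 differences were 0.06 ± 0.21 and −0.01 ± 0.30 (SE), with adjusted p of 0.866 and 0.992. At the other end stood Hdac5 and Kmt2d. Hdac5 had 7, 5, 6 and 5 peaks in FGR libraries and 6, 5, 5 and 7 in Ctrl, and Kmt2d had 4, 4, 5 and 4 in FGR and 4, 4, 5 and 4 in Ctrl. The counts were nearly the same in both groups, so that the log2 differences, −0.59 ± 0.22 (adjusted p = 0.202) and −0.59 ± 0.24 (adjusted p = 0.227), come from the division by list length. Ezh1, Ehmt2 and Eed had −0.57, −0.53 and −0.53, with adjusted p of 0.245, 0.281 and 0.323. Ezh1 had 3, 2, 4 and 3 locus peaks in FGR libraries 1 to 4, and 4, 1, 5 and 3 in Ctrl libraries 1 to 4. Ehmt2 had 3, 2, 2 and 5 in FGR and 2, 2, 2 and 6 in Ctrl, and Eed had 2, 2, 2 and 2 in FGR and 2, 1, 2 and 3 in Ctrl.

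**Figure D4:**
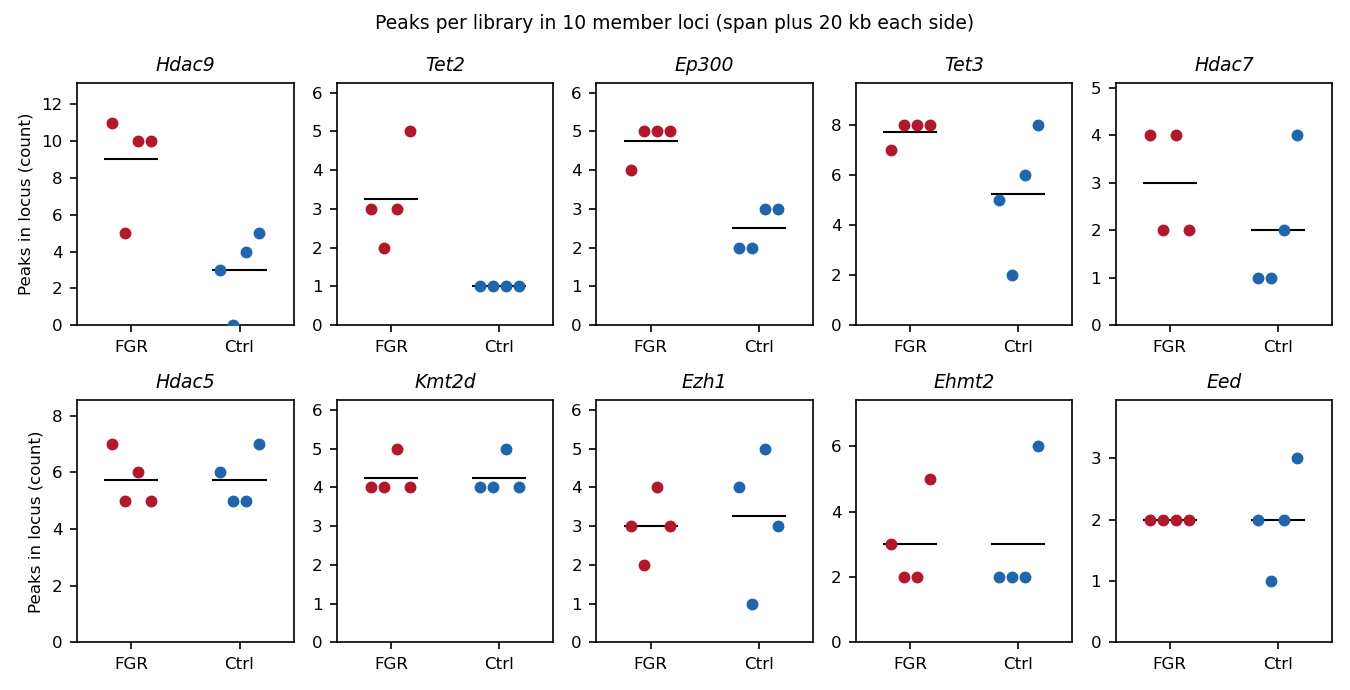
Peaks in the locus per library, not divided by list length, for the 5 members with the highest and the 5 with the lowest limma difference, with 4 FGR libraries left of 4 Ctrl libraries and a line at the mean. The counts of Tet2 and Ep300 show no overlap between the groups, and Kmt2d and Hdac5 have equal means.

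**Figure D5:**
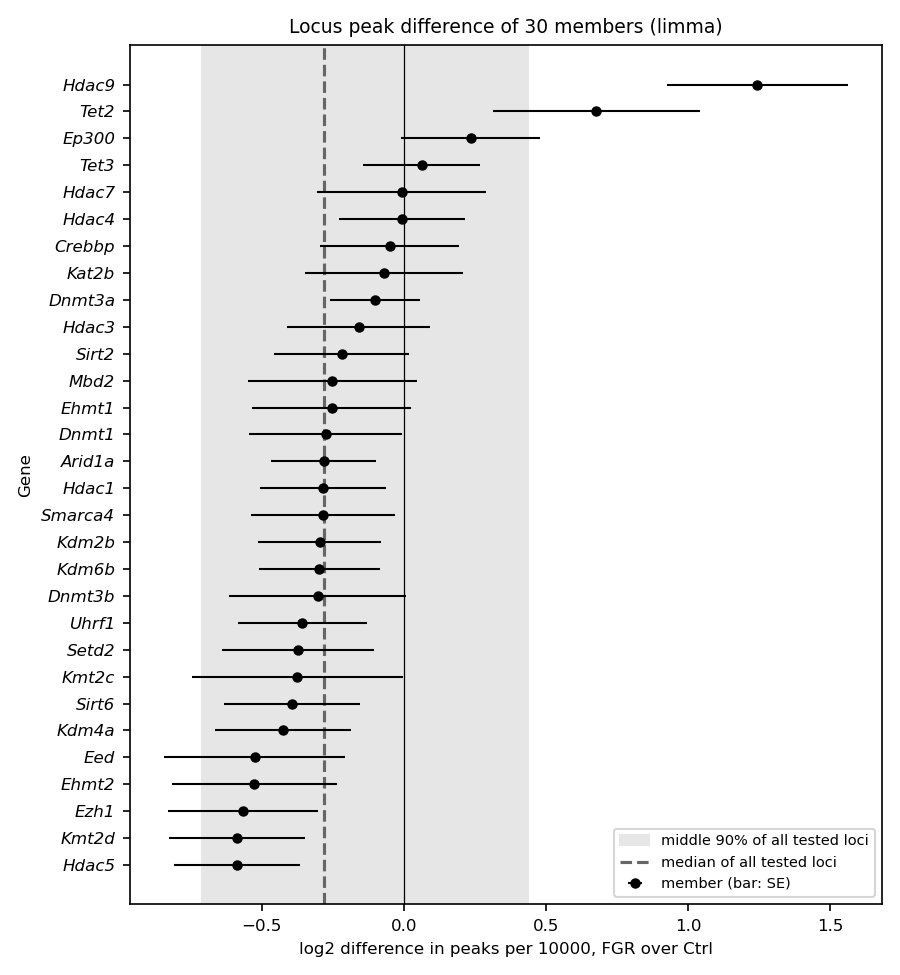
The limma log2 difference in locus peaks per 10000, FGR over Ctrl, with SE, for the 30 tested members in order. The dashed line is the median of all 8037 loci, at −0.28, and the band their middle 90%. Hdac9 and Tet2 lie right of the band.

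Regions in member loci numbered 263 of the 52177 in the series. All 8 libraries called 65 of them, or 24.7%, against 16.9% of all regions. The share was 25 of 45 at the members' own starts, 8 of 102 inside the gene spans and 7 of 55 in the flanks. The 15 shared regions away from gene ends were 5 at Dnmt3a, 2 each at Hdac1 and Sirt6, and 1 each at Tet3, Hdac4, Hdac5, Sirt2, Kdm4a and Arid1a. Among the strongest, chr12:3855748-3856676 in Dnmt3a had a median percentile of 92.6 and chr4:133706756-133707508 in Arid1a 93.2.

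Calls in 4 FGR and 0 Ctrl libraries were made for 2 member regions, against 0.866 percent of all regions, and calls in 4 Ctrl and 0 FGR libraries for 0, against 0.0268 percent. The first lay inside Tet3 (chr6:83404084-83404722), with percentiles of 19.8 to 36.3, and the second in the flank of Kdm6b (chr11:69429356-69429778), with 13.8 to 32.0. Both were among the weaker peaks of their lists. The Kdm6b locus as a whole held 7, 6, 7 and 7 peaks in FGR libraries 1 to 4, and 7, 3, 8 and 5 in Ctrl libraries 1 to 4. A difference of at least 3 libraries was found for 9 regions with more FGR libraries, against 4.32 percent of all regions, and for 1 with more Ctrl libraries, against 0.217 percent. The 9 were 3 at Hdac9 and 1 each at Dnmt3a, Tet3, Hdac7, Sirt6, Kdm6b and Ep300. The 1 lay in the flank of Kdm2b (chr5:122994381-122995021).

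Away from gene ends, regions inside member genes numbered 51, 41, 47 and 53 in FGR libraries 1 to 4, and 24, 10, 34 and 36 in Ctrl libraries 1 to 4. Per 10000 called regions of the library they were 19.3, 18.4, 16.5 and 21.2 in FGR, and 15.5, 9.56, 15.6 and 15.5 in Ctrl, so that all FGR libraries lay above all Ctrl libraries. The same held over all genes, with 3105, 2935, 3215 and 3129 per 10000 in FGR and 2174, 1482, 2762 and 2691 in Ctrl. The members' share of these regions was 0.623%, 0.628%, 0.512% and 0.676% in FGR and 0.711%, 0.645%, 0.566% and 0.575% in Ctrl, and the groups overlapped. List length also differed between the groups, and its part in these counts was not tested.

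A further 176 chromatin genes, in 7 lists of the same families, gave a similar picture. A gene-end peak in 8 libraries was called for 115, or 65.3%. The counts were 10 of 17 other DNA methylation genes, 18 of 29 deacetylase genes and complex partners, 18 of 27 Polycomb genes, 21 of 30 methyltransferases, 13 of 21 demethylases, 14 of 20 acetyltransferases and acetyl readers and 21 of 32 remodellers. Differences of 3 libraries were seen at Apobec1, a cytidine deaminase gene, and Atrx, a remodeller gene, both with 3 FGR and 0 Ctrl libraries, and at Bcor, a Polycomb partner, with 0 FGR and 3 Ctrl. Of 106 loci tested by limma 0 passed, with 1 higher and 19 lower at an unadjusted p under 0.05 and a median log2 difference of −0.28. The smallest adjusted p in these lists was 0.12, for Kat8, a histone H4 acetyltransferase gene, at −0.85.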

How the data were processed

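Per the submitters' processing notes, the tools included MACS2 2.2.7.1, Bowtie2 2.4.5 and Trim Galore 0.6.5, with build mm10; settings, read shifting and duplicate handling were not given in the sources used here. The authors deposited 1 peak list per library. The deposited score is a display value and was not used. The deposited fold is a ratio of pileup to local background and was used only to describe peaks. The −log10 p and −log10 q values deposited with each peak were used to recover pileups and to rank peaks within a list; the smallest −log10 q was 1.31. Read totals are unknown. A background coverage recovered from fold and −log10 p by a Poisson tail, with a tolerance of 0.001, was 3.52 to 4.82 in FGR and 3.01 to 6.05 in Ctrl.

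Gene spans came from a RefSeq gene table of GRCm38.p6, which shares mm10 coordinates, and starts and promoter sequences from RefSeq's promoter table of that build, which matched 34 of 38 members. Of 177 symbols in the lists of other chromatin genes, 176 matched. Locus counts were fitted in R 4.3.3 by limma 3.58.1, using a trend and a pseudocount of 0.5, threshold 0.05. The remaining steps ran in Python 3.11.15 with pandas 2.3.3, numpy 2.4.6 and scipy 1.17.1, and functions were tested on simulated data. Every member is named. Library values are given for the 5 highest and 5 lowest limma differences, members whose locus held a region of 1 group alone, and the highest percentiles; members with a peak in all or no libraries are otherwise given by their counts and median percentile. The choice of members and lists was made with earlier results of these data known. Replicate numbers did not pair the libraries across groups, with correlations of −0.018 to 0.098 between same-numbered libraries.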

Additional observations from a re-analysis of the deposited data

Results flagged for a closer look

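In 26 groups of 4 libraries examined for a library far from the others, 3 were picked out by Dixon's test, where chance flags about 1 in 20 groups. FGR 3 had the highest share of members with a gene-end peak, at 76.3%, against 73.7% in each of the other FGR libraries, a difference of 1 gene. The Hdac9 locus held 0.0 peaks per 10000 in Ctrl 2, against 1.76 to 2.07 in the other Ctrl libraries. The Ep300 locus held 1.84 peaks per 10000 in Ctrl 2, against 1.24 to 1.32 in the other Ctrl libraries. Ctrl 2 had the shortest list, with 10862 peaks, and the part of list length in the last 2 values was not tested.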

How the results depend on the processing

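The number of members with a gene-end peak in all libraries was 22, between 22 and 26 with 1 library left out and 14 with lists cut to equal length. The share of all genes in these other settings is not given. In all settings run, 0 members were separated by 3 or more libraries, and the differences in the share of members with a gene-end peak and in locus peaks per 10000 moved by less than the spread between replicates. For the share that spread was 8.96 percentage points, the larger of the group SDs. The share difference, FGR minus Ctrl, still changed sign. It was 1.32 points, −2.85 without Ctrl 2, −3.29 with lists cut to equal length and −3.29 without Ctrl 1 and 2. The difference in locus peaks per 10000 was −6.16, with a spread of 5.61. It shrank to −1.61 without Ctrl 1 and 2 and to −2.18 in replicates 3 and 4 alone. With limma 0 members were called, and 1, Hdac9, with a pseudocount of 1 (adjusted p = 0.0263), with no filter on low counts (0.0132) and without Ctrl replicate 3 (0.0465), a range of 0 to 1 with 1 library left out. With the replicate number as a block, 1 member, Hdac9, was called (adjusted p = 0.000269), and 54 loci were called higher and 87 lower, against 1 and 0 without the block, although the numbers showed no pairing. Loci called higher and lower were 7 and 50 with a pseudocount of 1, 7 and 9 with no filter, 10 and 1 without division by list length, 13 and 7 with equal lengths, 8 and 7 without Ctrl 3 and 0 and 0 with pairs averaged. Member regions in all FGR and no Ctrl libraries numbered 2, between 2 and 5 with 1 library left out (5 without FGR 2, 4 without Ctrl 4), 1 with −log10 q of at least 5, 1 with lists of equal length, 1 with a flank of 5 kb and 9 in replicates 3 and 4 alone. Regions in all Ctrl and no FGR libraries numbered 0, between 0 and 1 with 1 library left out (1 without Ctrl 2), 1 with equal lengths, 2 without Ctrl 1 and 2 and 2 in replicates 3 and 4 alone. With libraries left out, fewer calls are needed for a region to count. The share of all regions in these other settings is not given. The log2 differences of Eed, Ehmt2, Ezh1 and Hdac7 turned to 0.063, 0.061, 0.021 and 0.58 when counts were not divided by list length. Hdac7, near 0, lay between −0.159 and 0.174 with 1 library left out. Tet3 lay between −0.063 (without Ctrl 2) and 0.14 with 1 library left out, and turned to −0.532 with equal lengths, −0.028 without Ctrl 1 and 2, −0.054 in replicates 3 and 4 alone and −0.039 with a flank of 50 kb. The cause was not tested. Loci hold few peaks, so that only large differences were detectable.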
